A study of Mus musculus with 6 samples.

Results

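The 10 genes described here, Bax, Bbc3, Pmaip1, Aen, Ei24, Trp53inp1, Perp, Tnfrsf10b, Fas and Eda2r, are targets of the transcription factor p53 that promote cell death. They were taken by name from the 23420 rows of a count table of ribosome-bound RNA, and all 10 had a row. The table covers 6 libraries, each from the cerebellum of a 4-week-old C57BL/6 mouse, with 3 animals per genotype. The 3 control libraries carried Pcp2-BacTrap and Rbm17 f/+, a floxed and a wild-type allele, with no Cre. The 3 conditional knockout (cKO) libraries carried Pcp2-BacTRAP, Pcp2-Cre and Rbm17 f/-, a floxed and a null allele. RBM17 is a splicing factor that acts at 3′ splice sites, and the title of the study names cryptic splicing on its loss.

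BacTRAP pulls down tagged ribosomes from a chosen cell type, here through Pcp2, a gene of Purkinje neurons, and the Cre used Pcp2 as well. Controls had no Cre, so the presence of Cre and the loss of Rbm17 cannot be told apart. Cells outside the Purkinje lineage also differed in genotype, since those of cKO animals had a null allele that controls lacked. In ribosome-bound RNA of a whole cerebellum, fewer cells of a type and less RNA per cell cannot be told apart either.

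p53 is held at low levels by MDM2 and is stabilised under DNA damage and other stresses, after which it binds DNA at a pair of 10-base motifs and switches on its targets. Some targets stop the cell cycle, and others kill the cell. The mitochondrial route runs through BAX, which opens the outer mitochondrial membrane and releases cytochrome c, and through the BH3-only proteins PUMA (Bbc3) and NOXA (Pmaip1), which block the survival proteins of the BCL2 family. The receptor route runs through membrane proteins of the tumour necrosis factor receptor family, here Fas, Tnfrsf10b and Eda2r.

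The promoters show which of these genes carry the p53 motif close to their start. RefSeq promoter windows on GRCm38.p6 matched 6 of the 10 genes, in 9 windows that end 50 bases after a start site, and 3 of these genes held the 10-base motif, searched as the published p53 consensus decamer, which reads the same on both strands. The motif with 10 flanking bases on each side is printed 5′ to 3′ with the decamer in capitals.
Bax: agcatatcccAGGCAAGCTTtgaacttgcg
Aen: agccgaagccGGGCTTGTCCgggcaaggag
Ei24: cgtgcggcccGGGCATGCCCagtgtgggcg
The Bax sequence lies at chr7:45467080-45467109 on the minus strand, with the decamer at bases -201 to -192 from the start site. In Aen it lies at chr7:78895927-78895956 on the plus strand, from base 11 to base 20 after the upstream start site and from -121 to -112 of the other. The Ei24 sequence lies at chr9:36797325-36797354 on the minus strand, with the decamer at bases -10 to -1. Counted by window, a single decamer was present in 4 of the 9 windows of these genes and in 8.36% of the 32851 windows in the table. The same Aen decamer counts once for each of its start sites among the 4. A pair of decamers separated by at most 13 bases, the form of a complete site, was present in 0.0731% of all windows and in 0 of the 9 windows of these genes. No match says only that these letters are not in this window.

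The transcripts of Ei24 and Aen carry the 2 splice changes described further on, and their sequences are shown here. For Ei24 (an endoplasmic reticulum membrane protein first found as a p53-induced gene) the coding exon that was left out more often in cKO is printed in capitals between 20 bases of each neighbouring exon, and the joined product has the bases after the junction in capitals. For Aen (apoptosis enhancing nuclease) the last exon at the splice donor has the bases after the donor in capitals, beginning with the GT of a splice donor. The joined RNA has the first bases of Isg20 exon 2 in capitals.
Ei24 with the exon: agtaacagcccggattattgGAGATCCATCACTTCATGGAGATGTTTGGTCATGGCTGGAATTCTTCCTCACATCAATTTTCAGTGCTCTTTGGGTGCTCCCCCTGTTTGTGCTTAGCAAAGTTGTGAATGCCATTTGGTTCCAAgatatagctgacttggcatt
Ei24 without the exon: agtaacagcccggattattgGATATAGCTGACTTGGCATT
Aen last exon at the donor: ctccctagtcacgggGTAGGATTGGAGTTC
Aen joined to Isg20: ctccctagtcacgggGGCTTTCTGAGGGTC
These were read from the GENCODE M21 transcripts on GRCm38, the assembly that mm10 names.

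The libraries held between 140110897 and 160571518 gene counts and between 73457422 and 83976095 splice junction reads. Rbm17 itself stood at 41.2, 42.5 and 41.3 CPM (gene counts scaled to a common library size) in the controls and 25.7, 25.6 and 26.3 CPM in cKO, a log2 fold change of -0.69 (SE 0.09, adjusted p = 0.0016, edgeR quasi-likelihood test). Of all 16067 genes tested, 4.03% were called higher and 3.85% lower in cKO, which is the background for the marker counts that follow. Of 18 Purkinje markers, 12 were lower and 0 higher in cKO, and their summed level went from between 34245 and 45415 CPM to between 20986 and 23956 CPM. Pcp2, whose regulatory sequence drives both the tag and the Cre, had a log2 fold change of -1.40 (SE 0.13, adjusted p = 0.00035). Of 16 microglia markers, 9 were higher and 0 lower, and their summed level went from between 70.6 and 100.9 CPM to between 131.8 and 218.4 CPM, with none at 0 in any library. Among the microglia markers the defining genes Tyrobp and Cd68 rose by 2.97 (SE 0.44) and 1.89 (SE 0.29) on the log2 scale. Astrocyte markers gave 1 higher (Gfap, log2 fold change 1.46, SE 0.21) and 1 lower (Hopx, log2 fold change -0.32, SE 0.09) of 10. Their median log2 fold change was -0.27, and their summed level went from between 4690 and 5363 CPM to between 3652 and 4228 CPM. At an unadjusted p under 0.05 the astrocyte list held 5 genes, and DESeq2 called 4. The share of all genes at this unadjusted threshold was not counted, for this list or the others. Among the remaining markers, edgeR called 0 of 10 granule cell, 0 of 10 oligodendrocyte and 0 of 8 endothelial genes. At an unadjusted p under 0.05 these last lists held 1, 2 and 0 genes, and DESeq2 called 1, 0 and 0. The part of these shifts in the results below was not tested.

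Of the 10 death genes, 8 rose in cKO at an adjusted p under 0.05 in edgeR's quasi-likelihood test and none fell. Of all 16067 genes tested, 4.03% rose and 3.85% fell. Fas and Eda2r did not pass, with an unadjusted p of 0.027 and 0.0092 in the same test. The log2 fold changes of the 10 ran from 0.46 for Ei24 to 2.57 for Pmaip1 with a median of 1.47, beside a median of 0.01 over all genes. In 9 of the 10, every cKO library lay above every control library, which was so for 15.0% of genes tested, and the exception was Fas. The highest of the 3 cKO libraries was replicate 1 for 4 genes, replicate 2 for 3 and replicate 3 for 3.

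**Figure D1:**
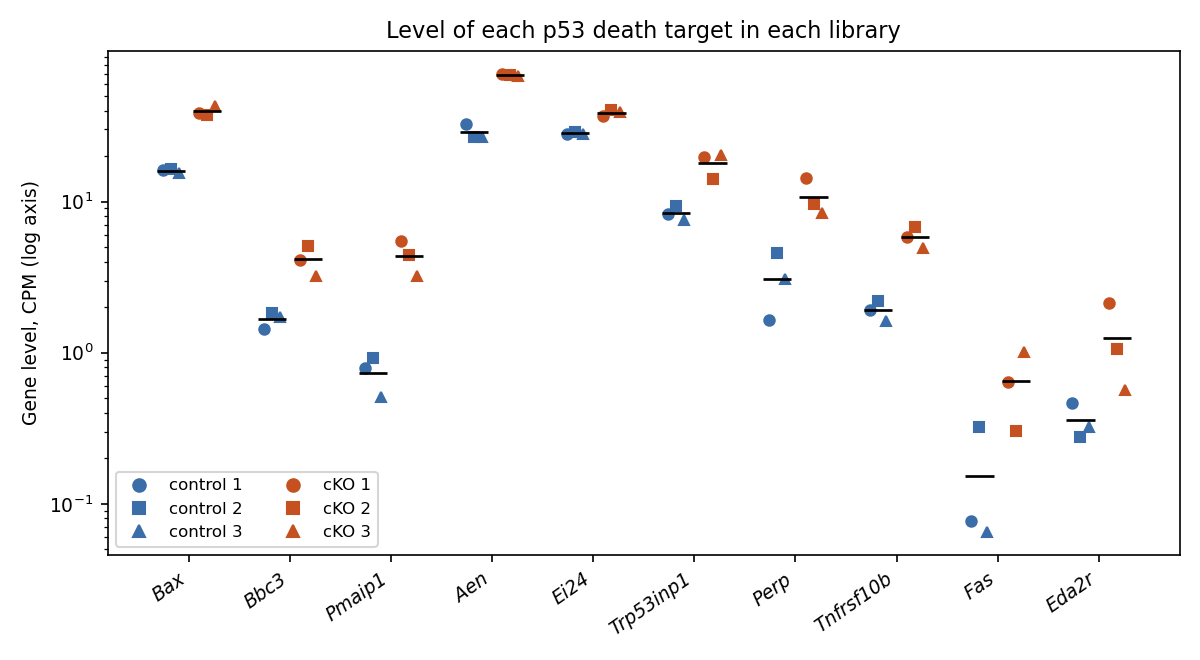
Level of each gene in each library in CPM on a log axis, with controls in blue and cKO in orange, the replicate number as the symbol and the group mean as a black bar. The cKO points lie above all control points for every gene except Fas, where cKO 2 at 0.305 CPM lies under control 2 at 0.320 CPM.

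The 10 genes covered a wide range of levels. Counted per kilobase of annotated exon, Bax was the most abundant of the 10 in both genotypes, at 10.1 CPM per kb in control and 25.2 CPM per kb in cKO. Ei24 at 5.80 CPM per kb and Aen at 4.95 CPM per kb came next in control, and changed places in cKO at 7.97 and 11.9 CPM per kb. Perp, Trp53inp1 and Bbc3 followed with 1.58, 1.29 and 0.780 CPM per kb in control. Tnfrsf10b, Pmaip1, Fas and Eda2r were lowest, at 0.351, 0.270, 0.0745 and 0.0604 CPM per kb in control. Among neighbours in the control order, the libraries overlapped between Perp and Trp53inp1, between Tnfrsf10b and Pmaip1, and between Fas and Eda2r, so these places are within the spread.

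Bax, Bbc3 and Pmaip1, the members of the mitochondrial route, all rose. Bax, the pore former (chr7:45461697-45466898, minus strand), was measured at 16.1, 16.5 and 15.3 CPM in the controls and 38.4, 37.6 and 43.0 CPM in cKO. The groups were far apart and each was tight, with the highest library at 1.07 times the lowest in control and 1.14 times in cKO. The log2 fold change was 1.31 (SE 0.10, adjusted p = 0.00013). Bbc3, which encodes PUMA (chr7:16308393-16318205, plus strand), went from 1.44, 1.82 and 1.72 CPM to 4.10, 5.08 and 3.23 CPM, with no overlap and a log2 fold change of 1.32 (SE 0.26, adjusted p = 0.013). The Bbc3 call depended on cKO replicate 2, its highest library: without it the log2 fold change was 1.14 with an adjusted p of 0.059.

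Pmaip1, on chromosome 18, encodes NOXA, a BH3-only protein that binds the survival protein MCL1. Controls had 0.786, 0.918 and 0.512 CPM, from 71 to 132 reads each, and cKO libraries had 5.46, 4.44 and 3.23 CPM, from 526 to 886 reads each. Even the lowest cKO library was 4.37 times the control mean. Its log2 fold change of 2.57 (SE 0.32, adjusted p = 0.0015) was the largest of the 10.

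Aen and Ei24 were the most abundant members after Bax per kilobase and had very different changes. Aen, a nuclease that digests DNA and RNA (chr7:78895854-78911209, plus strand), was at 32.7, 26.9 and 26.6 CPM in the controls and 70.2, 68.4 and 68.1 CPM in cKO. The cKO libraries lay within 1.03-fold of each other, and the log2 fold change was 1.26 (SE 0.10, adjusted p = 2.0e-04). Ei24 (chr9:36779159-36797393, minus strand) moved from 28.0, 28.7 and 27.9 CPM to 36.9, 40.3 and 39.2 CPM. The groups did not overlap, yet the step was small, 0.46 on the log2 scale (SE 0.09, adjusted p = 0.014). Its adjusted p rose to between 0.054 and 0.076 without cKO replicate 2, cKO replicate 3, control replicate 2 or control replicate 3. Ei24 also overlaps Gm26787 on the other strand, and its count can include antisense reads, because the strand setting of the counting is not known here.

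Trp53inp1, a stress protein that feeds back on p53 and takes part in autophagy (chr4:11156431-11174379, plus strand), was at 8.22, 9.30 and 7.53 CPM in the controls and 19.7, 14.2 and 20.3 CPM in cKO. All cKO libraries were higher, with cKO 2 the lowest of the 3, and the log2 fold change was 1.11 (SE 0.16, adjusted p = 0.0030). Perp, a membrane protein of cell junctions that p53 uses in cell death (chr10:18845020-18857073, plus strand), went from 1.65, 4.54 and 3.05 CPM to 14.2, 9.70 and 8.43 CPM. Perp was the called member whose controls varied most, but its groups did not overlap and its log2 fold change was 1.81 (SE 0.33, adjusted p = 0.0099).

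The 3 death receptors were among the 4 least abundant members per kilobase in control, and 1 of the 3 passed the test. Tnfrsf10b, the mouse receptor for the ligand TRAIL (chr14:69767472-69784411, plus strand), was at 1.92, 2.21 and 1.61 CPM in the controls and 5.84, 6.80 and 4.93 CPM in cKO. Each cKO library was between 2.57 and 3.55 times the control mean, and the log2 fold change was 1.61 (SE 0.23, adjusted p = 0.0024). Fas, the receptor of Fas ligand (chr19:34290666-34327772, plus strand), had 10, 46 and 9 reads in the controls and 104, 45 and 164 in cKO, or 0.0763, 0.320 and 0.0649 CPM against 0.641, 0.305 and 1.01 CPM. With these overlapping groups the log2 fold change was 2.07 with a 95% interval from 0.28 to 3.87 and an adjusted p of 0.16. Without control 2, the highest control, it was 3.17 with an adjusted p of 0.087.

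Eda2r, a receptor for ectodysplasin A2 on chromosome X (chrX:97333840-97377216, minus strand), had 0.466, 0.278 and 0.324 CPM in the controls and 2.13, 1.05 and 0.565 CPM in cKO. The cKO libraries were all higher but differed 3.77-fold among themselves, and the log2 fold change was 1.81 with a 95% interval from 0.55 to 3.06 (adjusted p = 0.085). Without cKO 1 it was 1.18 with an adjusted p of 0.35. DESeq2 called Eda2r with an adjusted p of 0.015 and so counted 9 of the 10 genes, against 6.05% of all genes that it called higher.

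**Figure D2:**
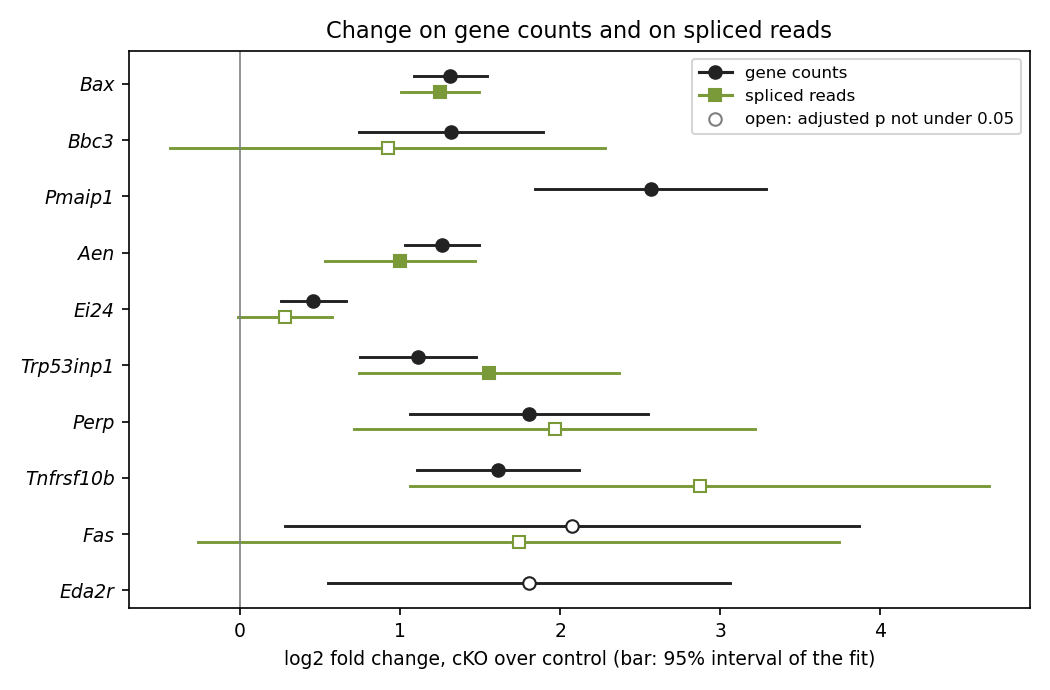
Log2 fold change of cKO over control for each gene, from gene counts (black circles) and from reads spliced over annotated introns (green squares), with 95% intervals of the edgeR fit and open symbols where the adjusted p was not under 0.05. Gene counts passed for 8 genes and spliced reads for Bax, Aen and Trp53inp1, every point is to the right of 0, and Pmaip1 and Eda2r have no spliced value.

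Reads that cross an annotated intron come from spliced transcripts of the gene, although from the same libraries as the gene counts. All 10 genes had a higher mean of such reads in cKO, and 8 had enough for the test. Bax, Aen and Trp53inp1 passed, which is 3 of 8, and none fell. Of 14714 genes tested, 2.87% rose and 2.81% fell. An unadjusted p under 0.05 was found for 5 of the 8, and the share of all genes at that threshold was not counted. In 6 of the 10 genes every cKO library was above every control library. Among the 8 tested these were Bax, Aen, Tnfrsf10b, Perp and Trp53inp1, against 13.1% of all genes tested. The other was Eda2r, which was not tested.

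Bax had the strongest support, with 27.5, 27.9 and 25.9 RPM (spliced reads scaled to a common total) in the controls and 62.9, 61.6 and 69.0 in cKO, a log2 fold change of 1.25 (SE 0.11, adjusted p = 0.00051). Aen went from 7.88, 5.26 and 4.83 RPM to 11.8, 12.5 and 11.8, a log2 fold change of 1.00 (SE 0.21, adjusted p = 0.024). For Trp53inp1 the values were 1.91, 1.29 and 0.843 against 4.68, 3.05 and 4.18 RPM, a log2 fold change of 1.56 (SE 0.36, adjusted p = 0.037). The groups of all 3 genes did not overlap. Bax stayed under 0.05 whichever library was left out, whereas Aen and Trp53inp1 each lost the call without any of the 3 cKO libraries, control 2 or control 3, with adjusted p between 0.055 and 0.13.

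Tnfrsf10b and Perp had cKO libraries that were all higher and missed the threshold. Tnfrsf10b had 0.149, 0.0545 and 0.629 RPM in the controls and 3.00, 1.12 and 1.99 in cKO (log2 fold change 2.87, SE 0.81, adjusted p = 0.076), and without control 3 it was 4.31 with an adjusted p of 0.023. Perp had 0.239, 0.967 and 0.515 against 2.92, 1.39 and 2.44 (log2 fold change 1.97, SE 0.56, adjusted p = 0.079). The groups overlapped for Bbc3 (log2 fold change 0.92, adjusted p = 0.47), Fas (1.74, adjusted p = 0.34) and Ei24 (0.28, adjusted p = 0.28, 95% interval from -0.01 to 0.57).

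Pmaip1 and Eda2r had too few spliced reads for the test. Pmaip1 had 3, 1 and 9 reads in the controls and 46, 72 and 10 in cKO. After scaling the groups overlapped, with cKO 3 at 0.120 RPM under control 3 at 0.129 RPM. For Eda2r there were 2, 7 and 2 reads in the controls and 81, 9 and 27 in cKO, all higher than the controls.

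Along the transcripts, 57 annotated introns of the 10 genes had at least 10 reads, and in 25 of them all cKO libraries were above all controls, against 9.18% of annotated introns with that many reads. No intron had all cKO libraries below. The reads were summed over all libraries, so introns of genes higher in cKO could reach 10 through cKO more easily. Introns of the same gene also share its change in level. The count of 25 and the background share are therefore not on equal terms. In Bax all cKO libraries were above all controls in 6 of 6 introns, with cKO means between 2.19 and 2.99 times those of control. Bax reads increased from the first to the last intron of the main transcript, from 0.734 to 10.0 RPM in control and from 1.61 to 24.0 RPM in cKO, so the 3′ side of the gene gave most of the support. A single Bax intron is shared with the overlapping gene Gm45808 and was left out of the Bax sums.

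The other genes were less even. Tnfrsf10b had cKO above control in 5 of 7 introns, Perp in 2 of 2, Trp53inp1 in 3 of 5, Eda2r in 2 of 6, Pmaip1 in 1 of 2 and Bbc3 in 1 of 4. Aen had it in 2 of 5 introns and Ei24 in 3 of 12. Fas had it in 0 of 8, since cKO 2 lay among the controls.

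**Figure D3:**
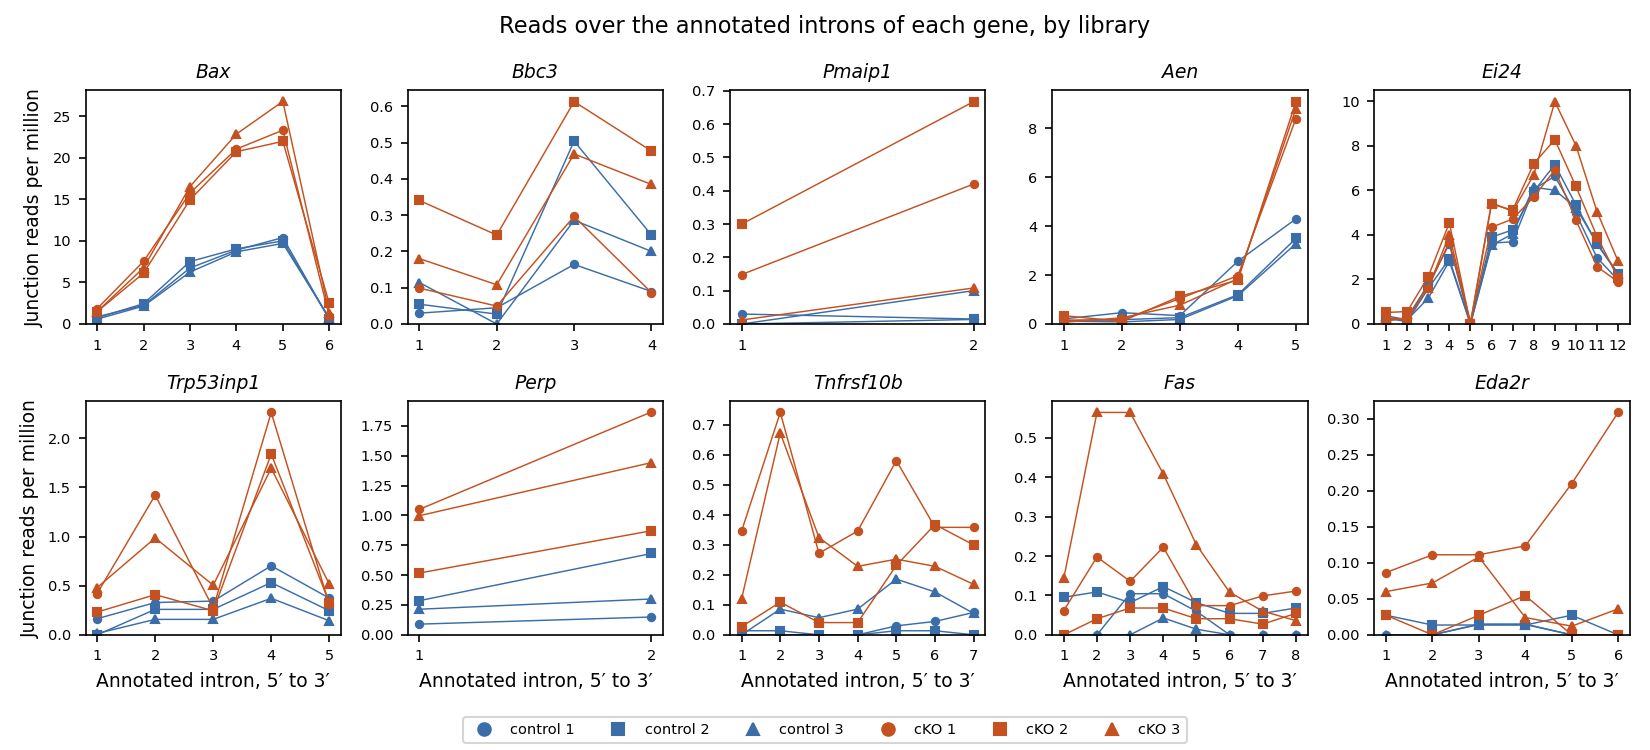
Junction reads (RPM) over each annotated intron, ordered 5′ to 3′ and including alternative introns, for each gene and library, with controls in blue and cKO in orange and 1 symbol per replicate. Each panel has its own vertical scale, and the 6 Bax introns are the only full set of more than 2 introns in which cKO was higher throughout.

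Splice junctions were then tested against the rest of their cluster, to see whether transcripts of these genes were also spliced differently. A cluster chains junctions that share a donor or acceptor, directly or through another junction. The 10 genes had 109 junctions, 69 of which reached 10 reads summed over all libraries, and 12 of these 69 were not annotated. Of 35 that could be tested, 2 were raised in cKO by at least 5 percentage points of their cluster at an adjusted p under 0.05 in edgeR's diffSpliceDGE, against 0.659% of 112047 junctions tested. None was lowered, against 0.0928%. An unadjusted p under 0.05 was found for 5 of the 35, and the share of all junctions at that threshold was not counted. Both raised junctions were unannotated, the first in Ei24 and the second from Aen into the neighbouring gene Isg20. Among the 12 unannotated junctions, 7 had no read in any control library, against 28.5% of all 73554 unannotated junctions with as many reads. Of these 7, 4 had reads in every cKO library, a pattern of 5.75% of all such junctions. In the other direction, 1 of the 12 had reads in controls and none in cKO, against 10.5%. These genes had more junction reads in cKO, so their junctions could reach 10 summed reads through cKO more easily than those of other genes. The counts of unannotated junctions and the background shares are therefore not on equal terms.

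In Ei24 the raised junction, chr9:36785653-36786482, skips exon 6 of 11, a coding exon of 125 bp at chr9:36785936-36786060 that is printed above. It had 7, 4 and 2 reads in the controls and 52, 113 and 90 in cKO. Its share of the cluster was 0.625% ± 0.40 (SD, n = 3) in control and 8.46% ± 2.7 in cKO (adjusted p = 2.2e-04). Inclusion of the exon was 97.9%, 98.9% and 99.4% in the controls and 89.0%, 80.0% and 84.4% in cKO, so the groups did not overlap and the mean fell by 14.3 percentage points. The call held when any library was left out, with adjusted p from 0.00054 to 0.017.

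Since 125 leaves a remainder of 2 when divided by 3, leaving the exon out shifts the reading frame. The annotated frame of Ei24 has 358 codons before its stop, and the frame read through the skipped form has 126, of which 123 lie before the exon. The new stop lies 411 bases before the last exon junction. Protein and RNA stability were not measured. The rise in Ei24 gene counts therefore includes reads of both forms, and the annotated introns on each side of the exon had 247, 310 and 283 reads upstream and 405, 436 and 429 downstream in the controls, against 381, 375 and 420 upstream and 461, 528 and 556 downstream in cKO.

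Aen had a splice that left the gene. The junction chr7:78907424-78914321 starts 7 bases past the stop codon of Aen, within its last exon, and ends at exon 2 of Isg20, a gene for another exonuclease whose annotated start lies 2214 bases beyond the end of Aen on the same strand. It had 0 reads in every control and 30, 27 and 15 in cKO. Its share of the cluster was 8.13% ± 2.3 (SD, n = 3) in cKO and 0% in control, where 0 of 479 reads allows up to 0.626% (counting error only). The cluster reached upstream Aen introns through chr7:78896015-78914321, a junction with the same acceptor. Most of the 479 reads were at those introns, so the share and the test do not measure a choice at the junction's own sites. The adjusted p of the junction was 0.011, and it lost the threshold without control 1 (0.076), cKO 1 (0.075) or cKO 2 (0.054).

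The joined transcript keeps the whole Aen coding sequence of 298 codons, and the coding start of Isg20 at base 78914347 lies within the exon it joins. Counting every junction that ends at Isg20 exon 2, reads that began in Aen numbered 0, 0 and 0 in the controls and 34, 30 and 19 in cKO, whereas reads that began in Isg20 numbered 0, 0 and 2 against 8, 3 and 0. In cKO, 83.8% of the 99 reads at that site began in Aen. The next intron of Isg20 (chr7:78914575-78916532) had 3, 8 and 3 reads in the controls and 110, 96 and 45 in cKO.

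Isg20 gene counts moved with these reads, from 45, 29 and 36 to 453, 349 and 328, a log2 fold change of 3.15 (SE 0.39, adjusted p = 0.0013). The share of Isg20 counts that came from transcripts begun in Aen was not tested beyond this junction. A further unannotated junction from the first Aen exon to the same Isg20 site (chr7:78896015-78914321) had 4, 2 and 4 reads in cKO and 0 in the controls, and did not pass (adjusted p = 0.49).

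**Figure D4:**
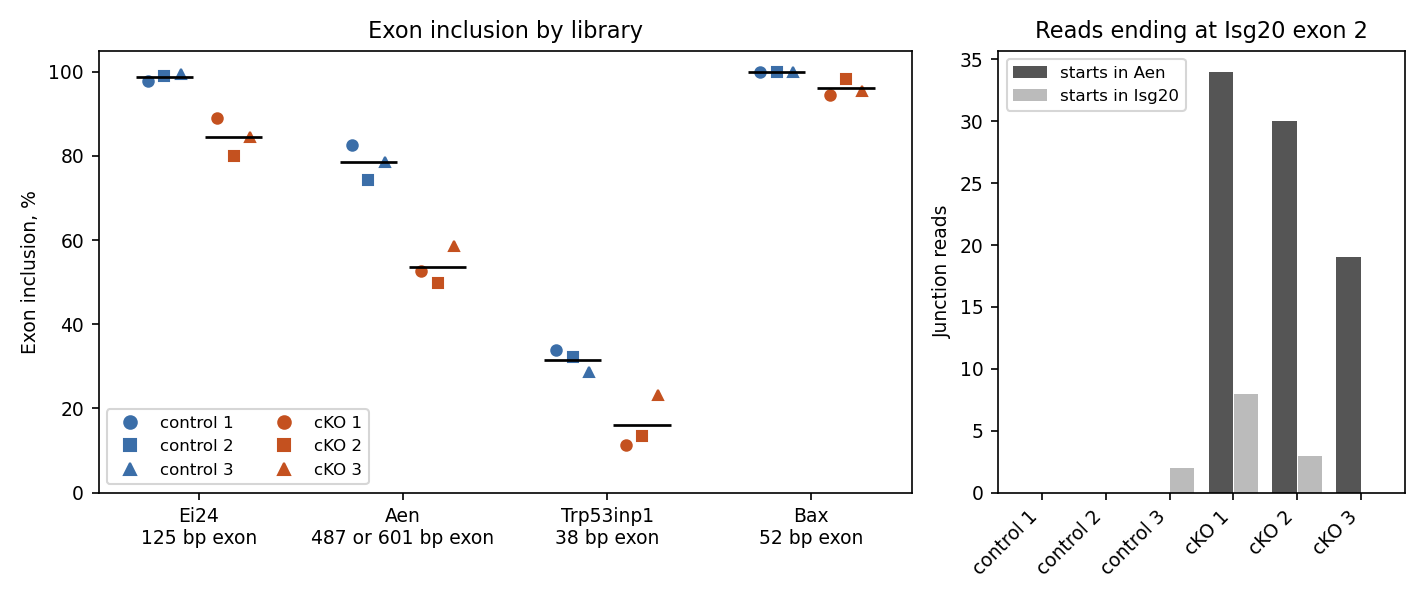
Left, inclusion in percent of 4 exons in each library, with controls in blue, cKO in orange and the group mean as a black bar. Right, junction reads that end at Isg20 exon 2 in each library by the gene in which they start. Ei24 exon inclusion lies between 80.0% and 89.0% in cKO and at 97.9% or more in control, and reads from Aen into Isg20 are present in all 3 cKO libraries and in no control.

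Other exons of these genes had non-overlapping inclusion without a call. The exon of Aen that ends at chr7:78902830, and begins at an annotated acceptor that makes it 487 bp or 601 bp long, was included in either form at 82.5%, 74.3% and 78.5% in the controls and 52.7%, 49.8% and 58.6% in cKO, and the annotated junction that skips it did not pass (adjusted p = 0.43). The 38 bp exon of Trp53inp1 at chr4:11167897-11167934 was at 33.8%, 32.2% and 28.8% against 11.4%, 13.5% and 23.2%, with cluster tests near 1. In Bax the 52 bp exon at chr7:45466220-45466271 was at 100% in all controls, with 0 skipping reads in each, and at 94.5%, 98.2% and 95.5% in cKO, with 22, 5 and 16 skipping reads (adjusted p = 0.19).

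Unannotated junctions took a larger share of the junction reads in every cKO library than in any control for 3 of the 10 genes. All 3 were among the 8 with enough spliced reads for the test, and the share over all 14714 such genes was 19.2%. Over whole libraries the share was also higher, at 1.52% to 1.98% in the controls and 2.03% to 2.13% in cKO. In Aen the share was 0% in every control and 4.02% ± 0.50 (SD, n = 3) in cKO, and in Ei24 it was 0.558% ± 0.12 against 2.83% ± 0.67. In Tnfrsf10b it was 8.69% ± 8.5 against 23.4% ± 6.7, but on only 68 control reads. The leading unannotated Tnfrsf10b junction, chr14:69767227-69770780, begins upstream of the annotated start and had 0, 0 and 2 reads in the controls and 32, 4 and 35 in cKO.

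Of the regulators of p53, 3 of 18 tested rose and none fell in edgeR, with a median log2 fold change of 0.02. For this list and those below, the shares over all 16067 genes tested were 4.03% higher and 3.85% lower. The kinase gene Chek2, which signals DNA damage to p53, went from 0.739 ± 0.25 CPM to 2.28 ± 0.22 CPM (SD, n = 3), a rise of 1.63 on the log2 scale (SE 0.36, adjusted p = 0.023). Rchy1 and Mdm2, ubiquitin ligases that act on p53 and are themselves its targets, rose by 0.51 (SE 0.10) and 0.33 (SE 0.08) on the log2 scale. The most abundant of the list, Hipk2 and Ep300, were at -0.16 (adjusted p = 0.47) and 0.22 (adjusted p = 0.20).

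Other p53 targets, of cell cycle arrest, repair and metabolism, gave 8 higher and 0 lower of 25, with a median log2 fold change of 0.33. Phlda3, an inhibitor of AKT, was at 9.85 ± 0.17 CPM in control and 39.2 ± 3.5 CPM in cKO (SD, n = 3; log2 fold change 1.99, SE 0.11). Cdkn1a, the cell cycle inhibitor p21, had a log2 fold change of 1.60 (SE 0.12), cyclin G1 (Ccng1) 1.20 (SE 0.10) and Sesn2 1.09 (SE 0.14). Zmat3, at 913 CPM in control the most abundant of them, was lower in all cKO libraries without passing (log2 fold change -0.36, adjusted p = 0.080).

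Downstream of the death genes, the survival genes of the BCL2 family and the inhibitors of apoptosis gave 0 calls in either direction among 10 tested in edgeR, with a median of 0.06. At an unadjusted p under 0.05, for which no share over all genes was counted, there were 4, and DESeq2 called 1. Bcl2l1 and Bcl2l2, the most abundant, had log2 fold changes of -0.18 (adjusted p = 0.28) and 0.08 (adjusted p = 0.70). The partners of BAX and the other BH3-only genes gave 2 higher of 10. Bcl2l11, which encodes the BH3-only protein BIM, was at 24.9, 22.0 and 23.7 CPM in the controls and 223, 131 and 135 CPM in cKO (log2 fold change 2.79, SE 0.19, adjusted p = 8.0e-05), and Hrk, a neuronal BH3-only gene, had 1.33 (SE 0.22).

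Genes of the apoptosome and the caspases gave 4 higher and 1 lower of 14, with a median of 0.08. Casp2 rose by 0.56 (SE 0.13) on the log2 scale and Casp9, the initiator caspase of the apoptosome, by 0.36 (SE 0.09), and Dffa, the inhibitor of the caspase-activated nuclease, fell by 0.38 (SE 0.09). Cytochrome c (Cycs) was at -0.28 (adjusted p = 0.12) and Parp1 at -0.36 (adjusted p = 0.13).

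In the death receptor pathway 2 genes were higher and 1 lower of 12 tested, with a median of 0.05. Eda, whose product includes the ligand of EDA2R, had a log2 fold change of 1.07 (SE 0.25, adjusted p = 0.030), and the neurotrophin receptor gene Ngfr 1.36 (SE 0.30, adjusted p = 0.023), with cKO 1 at 45.8 CPM and the other two at 19.7 and 19.4 CPM. Tnfrsf21, which encodes death receptor 6, fell by 0.40 (SE 0.10, adjusted p = 0.032). The ligand genes Fasl and Tnf, and Edar and Edaradd, had 0 reads in at least 1 library and were not tested. Faim2, an inhibitor of Fas signalling in neurons, was the most abundant at 383 CPM in control (log2 fold change -0.19, adjusted p = 0.37).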

How the data were processed

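Gene values are raw read counts that the authors deposited for 3 control and 3 cKO libraries, with no normalization; 27 row names were dates and 4 were repeated. Junction counts are reads per splice junction, made by TopHat per the file headers. TopHat2 2.1.0, HTSeq 0.6.0 and mm10 come from the submitters' processing notes; the annotation and strand setting of the counting: not given in the sources used here. The gene test was edgeR 4.0.16's quasi-likelihood test (R 4.3.3) after TMM scaling and filterByExpr, with Benjamini-Hochberg adjustment and a threshold of 0.05, and was first tested on simulated data. CPM use TMM-scaled library sizes. Spliced reads are sums over GENCODE M21 introns. Junctions whose reads summed to 10 or more, in 2 or more libraries, were tested within clusters with diffSpliceDGE, and a call needed 5 percentage points of share. For exon inclusion, reads entering and leaving the exon (all annotated acceptors summed) were averaged and divided by that average plus the skipping reads. DESeq2 1.42.0 and limma 3.58.1 voom were alternatives. Reads are amplified from little RNA, so limits for 0 reads (3 counts) cover counting error only.

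The genes and the lists were chosen with earlier results of these data known. Beyond the 10 genes, those named are Rbm17, from each list up to 4 called members of smallest p and the 2 of highest level, and junctions that passed; Isg20, the other junctions and the exons without a call were chosen after their values were seen, and not every gene taken by the rule is named. Replicates of a group differed beyond sampling noise, and p-values measure the spread between 3 animals per genotype. Of list symbols, 2 were matched through older names.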

Additional observations from a re-analysis of the deposited data

How the results depend on the processing

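The count of 8 death genes higher in cKO was 8 under RLE and upper quartile scaling, without a count filter, with at least 50 counts in 3 libraries, with limma-voom and without the Rn45s row (chosen after seeing the data), and 9 with DESeq2. With 1 library left out it ranged from 6 to 8. The count on spliced reads was 3 under the other scaling, filter and junction set, and 1 to 3 with 1 library left out. The 2 raised junctions were 2 with at least 50 reads or with no minimum share, and 1 to 2 with 1 library left out. No fold change of these genes reversed. Fas has no value with at least 50 counts in 3 libraries. Over all genes edgeR called 1265, DESeq2 2089, and between 530 and 1037 with 1 library left out. The replicate number as a block gave 8 genes, 4 on spliced reads (Tnfrsf10b added, log2 fold change 3.35, adjusted p = 0.030) and 2 junctions, and 1734 genes in all. Deviations of same-numbered libraries correlated at 0.24, -0.014 and 0.052, and those of differently numbered libraries at -0.25 to 0.23. With 3 libraries per genotype these values cannot tell whether the numbers pair the samples. At this depth Fas, Eda2r and Pmaip1 have few spliced reads, which limits their junction tests.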

Other observations

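Some unannotated junctions of these genes appeared in 1 genotype only and passed no test, and are given as values. A Bax junction that reaches upstream of the gene, chr7:45466124-45479008, had 18 reads in cKO 2 and 0 in the other 5 libraries. Another Bax junction, chr7:45466243-45466741, had 24 reads in cKO 1 and 0 elsewhere. A Bax junction at chr7:45461967-45463439 had 0, 3 and 12 reads in the controls and 0 in every cKO library. In Aen the unannotated junction chr7:78896202-78905842 had 0 reads in the controls and 5, 5 and 12 in cKO.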
